A study of Mus musculus with 9 samples.

Results

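Paneth cells sit at the base of small intestinal crypts and release granules of antimicrobial proteins into the crypt lumen. Their granules hold alpha-defensins, lysozyme, a secreted phospholipase and lectins, and the same cells give Wnt signals to the neighbouring stem cells. Wnt signalling through beta-catenin and TCF factors is known to drive Paneth cell maturation, and Smad4 carries the BMP and TGF-beta signals that oppose Wnt along the crypt. The genes described here are the rows of both deposited expression tables whose symbol starts with Defa, together with Lyz1, Lyz2, Mmp7, Pla2g2a, Ang4, Itln1, Nupr1, Habp2, Mptx1, Mptx2, Wnt3 and Fzd9. They make 30 of 23951 rows, 18 of them alpha-defensin rows and 12 others, and 24 of the 30 had a mean above 1 FPKM in each table (12 alpha-defensin rows and all 12 others).

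RNA was sequenced from jejunal crypts of mice in 9 libraries, 3 in each group. Smad4 KO mice were Smad4f/f; Villin-CreER(T2), in which tamoxifen activates a recombinase under the Villin promoter of the intestinal epithelium and removes Smad4. Double mutants were Smad4f/f; Ex3f/+; Villin-CreER(T2), in which exon 3 of 1 allele of the beta-catenin gene is removed as well, leaving a stabilised protein. Mutant mice of either kind were given tamoxifen for 4 days in a row, and crypts were taken 1 day after the last dose. Control mice are described only as control mice, with a treatment given as vehicle in one place and as no injection in another, and the age of the mice is not described here. The epithelium was loosened in 3 mM EDTA and strained through a 70 micron mesh to collect crypts. Each mutant group shares a table with the same 3 control libraries, and the control values of the second table are those of the first times a single factor per library (1.031, 1.06 and 1.043 for control 0, 1 and 2). The comparisons therefore share their controls and are not independent of each other.

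Smad4 itself was at 11.0, 9.96 and 10.8 FPKM in Smad4 KO crypts and at 11.2, 10.2 and 9.95 FPKM in double-mutant crypts, against 46.1 to 58.8 FPKM in control crypts. The files give no read counts. Steps in the lowest FPKM values put the depth of the libraries at 0.953 to 1.42 times that of control 0, and each library had 11196 to 11935 genes above 1 FPKM.

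The alpha-defensin genes form a cluster of related copies on chromosome 8, some of them nearly identical, and 3 of their promoters are shown here to let them be compared. Of the 30 genes, 26 matched the RefSeq gene table by symbol, among them 14 Defa rows, all on chromosome 8, and 16 had a RefSeq promoter of GRCm38.p6 (5 Defa genes and 11 others). The lines below run from -150 to -51 relative to the annotated start, 5′ to 3′ on the gene's strand, and capitals mark the letters ATCAAAG, the reverse complement of CTTTGAT, which is a form of the TCF/LEF recognition motif.
Defa20 (chr8:21509108-21509207, plus strand): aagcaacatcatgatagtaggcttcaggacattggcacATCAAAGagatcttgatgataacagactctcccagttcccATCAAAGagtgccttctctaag
Defa21 (chr8:21025395-21025494, plus strand): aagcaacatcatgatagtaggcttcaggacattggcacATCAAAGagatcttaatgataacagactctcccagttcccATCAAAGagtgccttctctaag
Defa23 (chr8:21054890-21054989, plus strand): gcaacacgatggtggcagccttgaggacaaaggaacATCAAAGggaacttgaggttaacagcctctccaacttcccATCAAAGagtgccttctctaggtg
Mptx1 (chr1:174330368-174330467, plus strand): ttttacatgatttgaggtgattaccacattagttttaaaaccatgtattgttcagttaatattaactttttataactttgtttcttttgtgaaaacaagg
Mptx2 (chr1:173277807-173277906, minus strand): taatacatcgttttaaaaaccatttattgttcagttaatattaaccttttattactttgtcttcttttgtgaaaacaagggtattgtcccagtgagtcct

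The motif was searched on both strands in the window from 250 bases before to 50 after the start. All 5 Defa promoters held 2 copies, at -112 and -72 in Defa2, Defa20, Defa21 and Defa22 and at -114 and -74 in Defa23. Among the 11 other genes the letters were in the window of 1, Mmp7, with 1 copy at 4 bases after the start. From a second annotated start of Mmp7 the copy was at -247. They were in 81.2% of the 16 Defa symbols of the promoter table and in 4.29% of all 27025 symbols outside chromosome 18. The 300-base windows of Defa2 and Defa20 were identical, as were those of Defa21 and Defa22, and 293 of 300 positions were the same between these pairs. Defa23, with the same pair of motifs, was listed at 0 in 8 of the 9 libraries, but 94.8% of the 50-base stretches of its transcript occur in other Defa genes, so reads of it can be counted elsewhere.

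The transcripts share sequence to very different degrees. In GENCODE M21, every 50-base stretch of the Defa2 and Defa20 transcripts also occurs in another Defa gene, and so do 92.2% of those of Defa3, 92% of Defa17, 74.9% of Defa22 and 72.9% of Defa21. The share was 28.1% for Defa24 and 9.6% for Defa26, so these rows share less with the other transcripts named Defa. Transcripts under other symbols were not compared, so all these shares are lower bounds. Reads that match several copies can be moved between them in the counting, and the level of a single Defa row is uncertain for that reason. Their sum within a library depends less on how reads were divided among these rows. FPKM are scaled by transcript length, so reads moved between rows of unlike length still change the sum. It leaves out 10 rows under Gm symbols that RefSeq names as Defa genes, among them Gm15284 and Gm14851, and reads moved to or from those would change it. AY761184, a row of the Paneth cell list below without a RefSeq match, is left out with or without the Gm rows. It had 10026, 7679 and 5394 FPKM in control crypts of the first table. Defa4, Defa6 and Defa-rs7 were among the rows not matched by symbol and are not judged for sharing.

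No gene of the group passed the test in either mutant. Between Smad4 KO and control crypts, 0 of the 24 tested genes were called higher and 0 lower (limma on log2(FPKM + 1), Benjamini-Hochberg adjusted p below 0.05), where 0.00844% of all 11849 genes were called higher and 0.0253% lower. Between double-mutant and control crypts it was again 0 and 0 of 24, where 9.39% of 11762 genes were called higher and 9.09% lower. At an unadjusted p below 0.05, 1 gene, Mptx1, was lower in each comparison, while 19.1% of all genes in the Smad4 KO table and 36.6% in the double-mutant table passed that mark in either direction.

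Most fitted differences were negative but small beside the spread between libraries. In Smad4 KO crypts 21 of the 24 fold changes were below 0, with a median of -0.61 on the log2 scale against -0.003 over all genes. In double-mutant crypts 20 of 24 were below 0, with a median of -0.27 against -0.001 over all genes. These counts rest on single libraries. Without Smad4 KO 0 only 3 of 24 were negative and the median was 0.63, and without control 0 it was 15 of 24 with a median of -0.09. In the double mutant the count was 12 of 24 without double mutant 1 and 9 of 23 without control 0, with medians of 0.02 and 0.20.

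**Figure D1:**
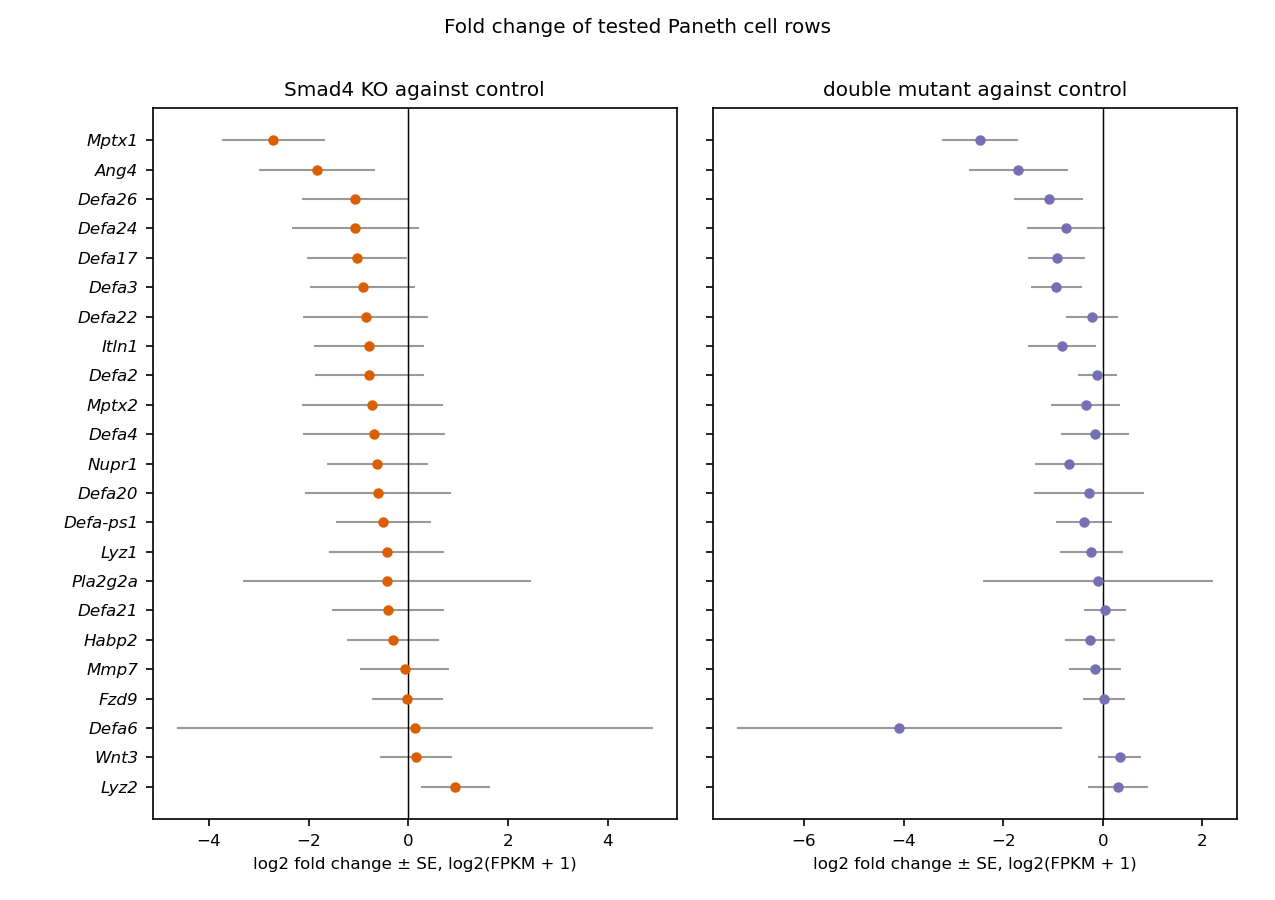
Log2 fold change with its standard error for the tested Paneth cell genes named on the axis, mutant over control (3 libraries a group), with Smad4 KO on the left and the double mutant on the right. Mptx1 lies lowest among genes measured in every library, at -2.71 and -2.47, and the wide bars of Pla2g2a and Defa6 come from libraries in which these genes were low or near 0.

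The Paneth cell genes varied together between the libraries of every group. All 24 genes were highest in Smad4 KO 2 among the Smad4 KO libraries, and 23 were lowest in Smad4 KO 0. All 24 were highest in double mutant 0 among the double mutants, and 23 were lowest in double mutant 1. In the controls 23 were highest in control 0, while 17 were lowest in control 2 and 7 in control 1. By Xist and Y-linked rows, Smad4 KO 0 and double mutant 1 were the only male libraries of their groups. Among the controls, control 0 and control 1 were male and control 2 female. With sex as a covariate the median log2 fold change in Smad4 KO was -1.17, with 0 genes of the group called. In the double mutant 21 of 24 fold changes were then negative, against 20 without the covariate. The part of sex in the order of libraries was not tested. The SD of log2(FPKM + 1) within a group had a median of 1.96 over the 24 genes in Smad4 KO crypts, against 0.213 over all genes. It was 0.84 in double-mutant crypts, against 0.145 over all genes, and 0.93 in control crypts of the first table, against 0.18.

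**Figure D2:**
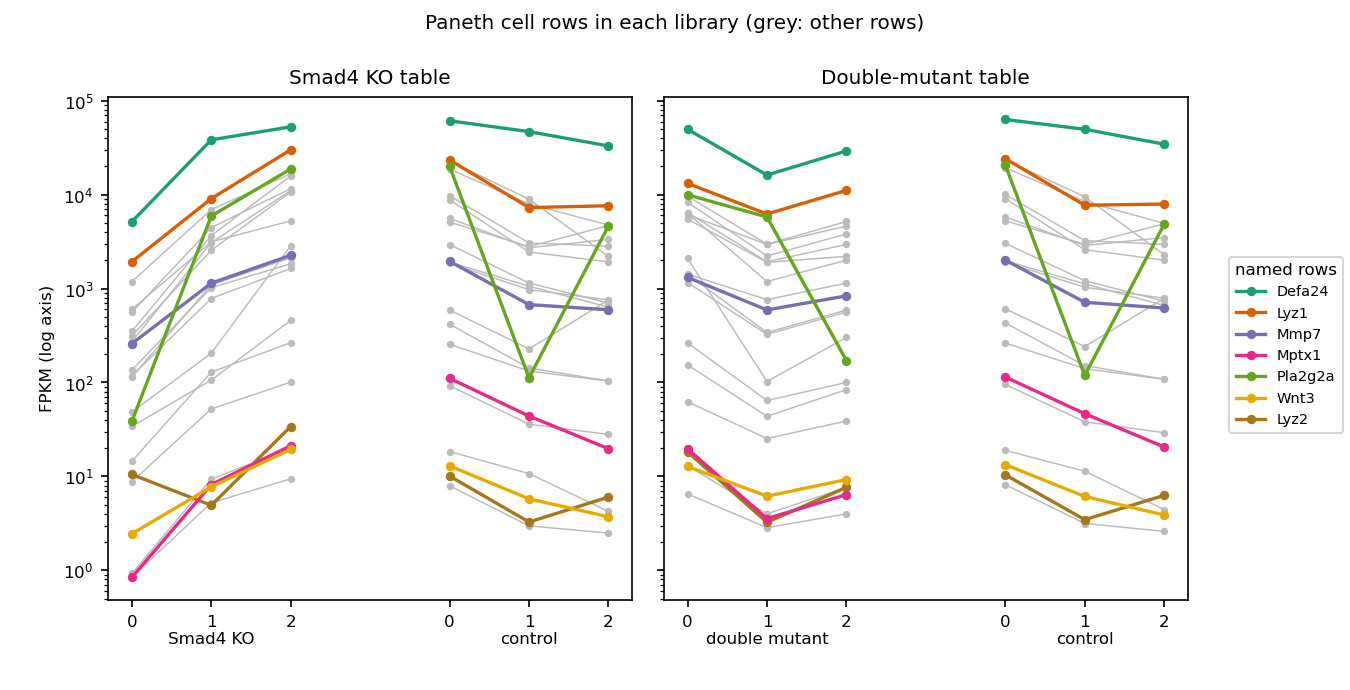
FPKM on a log axis of tested Paneth cell genes in each library, Defa6 left out, with mutant libraries left of the controls in each table. Lines tie the values of a gene together and stand for no order among replicates; nearly all genes are lowest in Smad4 KO 0 and in double mutant 1, and Pla2g2a departs from the rest in Smad4 KO 0, double mutant 2 and control 1.

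Alpha-defensins are small cationic peptides that disrupt microbial membranes, and they made up a large part of these libraries. The 18 Defa rows summed to 6945, 53499 and 108875 FPKM in Smad4 KO crypts, against 95198, 59540 and 47846 FPKM in control crypts. They summed to 78118, 25469 and 44160 FPKM in double-mutant crypts, against 98163, 63087 and 49905 FPKM in control crypts of that table. Smad4 KO 0 stood far below every other library and Smad4 KO 2 above every one, and the groups overlapped in both comparisons. As a share of all FPKM of a library, the Defa rows took 1.2, 8.86 and 14.5% in Smad4 KO crypts and 10.7, 4.44 and 7.43% in double-mutant crypts, against 12.9, 10.5 and 7.64% in control crypts. The mean sum was 83.6% of control in Smad4 KO crypts and 70.0% in double-mutant crypts. Single libraries set the Smad4 KO value, which was 120.2% without Smad4 KO 0, 105.1% without control 0 and 44.8% without Smad4 KO 2. With the 10 Gm rows but not AY761184 added, the mean sums were 82.0% of control in Smad4 KO crypts and 67.7% in double-mutant crypts. This addition was made after the values were seen. In bulk crypts, fewer Paneth cells and less of these RNAs in each cell cannot be told apart.

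Defa24 alone held 48.4 to 78.7% of the sum of the Defa rows, or 38.8 to 61.2% with the 10 Gm rows but not AY761184 added. It was the most abundant row of the whole table in every library but Smad4 KO 0, where it ranked 9. It had 5146, 38319 and 52689 FPKM in Smad4 KO crypts, against 61154, 46843 and 33001 FPKM in control crypts. In double-mutant crypts it had 49589, 16168 and 29159 FPKM, against 63058, 49634 and 34421 FPKM in control crypts. The double-mutant and control ranges overlapped through double mutant 0, and the log2 fold changes were -1.06 in Smad4 KO (SE 1.27, limma adjusted p = 0.683) and -0.73 in the double mutant (SE 0.78, limma adjusted p = 0.533).

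The other abundant Defa rows followed the same libraries. Defa4 had 350, 3664 and 15812 FPKM in Smad4 KO crypts and 8293, 2223 and 3806 FPKM in double-mutant crypts, against 9732, 3059 and 2827 FPKM in control crypts of the first table. Defa21 had 559, 4455 and 11581 FPKM in Smad4 KO crypts and 6126, 2946 and 4622 FPKM in double-mutant crypts, against 5105, 2791 and 4678 FPKM in those controls. Defa22 had 313, 2553 and 10677 FPKM in Smad4 KO crypts and 6426, 1931 and 2948 FPKM in double-mutant crypts, against 5594, 2717 and 3342 FPKM in those controls. In each of these the 3 groups overlapped, with Smad4 KO 0 as the lowest library of all. Defa21 had the highest fold change of the tested Defa rows in the double mutant, 0.04 on the log2 scale (SE 0.41, limma adjusted p = 0.95), and its sign turned with quantile normalization and with sex as a covariate (-0.19 and -0.15).

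Defa26 had the lowest fold change of the Defa rows in Smad4 KO crypts. Its FPKM were 136, 1020 and 1837 in Smad4 KO crypts, against 2939, 1145 and 703 in control crypts, a log2 fold change of -1.07 (SE 1.06, limma adjusted p = 0.619). In double-mutant crypts they were 1413, 341 and 589, against 3030, 1214 and 733 in control crypts, a log2 fold change of -1.08 (SE 0.69, limma adjusted p = 0.305). Control 0 was above every mutant library, while the other controls lay among them.

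Defa6 did not follow the rest. It had 6195 FPKM in Smad4 KO 2 and 4723 FPKM in control 0, and was at 0.00101 FPKM or less in each of the other 7 libraries, Smad4 KO 1 and double mutant 0 included, in which the Defa sum was 53499 and 78118 FPKM. The fitted log2 fold changes of 0.13 in Smad4 KO (SE 4.77, the highest of the tested Defa rows) and -4.08 in the double mutant (SE 3.26, the lowest) rest on those 2 libraries. Neither was called, with limma adjusted p = 0.992 and 0.408. No other Defa row that passed the filter was near 0 in some libraries and so high in others, and the part of read sharing between copies in this was not tested.

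The remaining 6 Defa rows did not pass the filter in either table. Defa-ps12, Defa-ps13, Defa25 and Defa5 were listed at 0 in all libraries. Defa-rs7 and Defa23 were listed at 0 in all but Smad4 KO 0, the library with the lowest alpha-defensin sum, where they had 0.507 and 0.51 FPKM.

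Lysozyme breaks bacterial cell walls, and Lyz1 is the form of mouse Paneth cells. It had 1930, 9066 and 30008 FPKM in Smad4 KO crypts, against 23412, 7275 and 7611 FPKM in control crypts, and 13176, 6217 and 11093 FPKM in double-mutant crypts, against 24141, 7709 and 7939 FPKM in control crypts. The groups overlapped in both comparisons, with log2 fold changes of -0.43 in Smad4 KO (SE 1.15, limma adjusted p = 0.869) and -0.23 in the double mutant (SE 0.63, limma adjusted p = 0.813).

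Lyz2, the lysozyme of myeloid cells, was far lower and did not follow the alpha-defensins in every library. It had 10.5, 4.92 and 34.0 FPKM in Smad4 KO crypts, against 10.1, 3.27 and 6.02 FPKM in control crypts, and 18.2, 3.25 and 7.66 FPKM in double-mutant crypts, against 10.4, 3.46 and 6.28 FPKM in control crypts. Smad4 KO 0 kept 10.5 FPKM while its Lyz1 was the lowest of all libraries, so that Lyz2 was 0.544% of Lyz1 there, against 0.0431 to 0.138% in the other 8 libraries. Its log2 fold change was 0.95 in Smad4 KO (SE 0.70, limma adjusted p = 0.501) and 0.31 in the double mutant (SE 0.60, limma adjusted p = 0.735). The summed level of the 10 listed myeloid marker rows was 18.2 to 34.0 FPKM in Smad4 KO crypts and 18.6 to 29.6 FPKM in double-mutant crypts, against 14.02 to 16.9 FPKM in control crypts. Emr1, Fcgr1 and Mrc1, which mark macrophages, were under 1 FPKM in every library. C1qa, a complement gene of macrophages, had 1.62, 0.146 and 3.72 FPKM in Smad4 KO crypts and 2.68, 0.306 and 0.0839 FPKM in double-mutant crypts, against 0.797, 0.233 and 0.458 FPKM in control crypts of the first table. C1qb and C1qc were likewise above 1 FPKM in Smad4 KO 0, Smad4 KO 2 and double mutant 0 and in no other library, and Lyz2 was highest in the same 3 libraries, though Smad4 KO 0 was barely above control 0. Of the 3 myeloid markers tested in the double mutant, 1 (Cd14) was called higher, where 9.39% of all genes were. Cd68 was also higher but not called, and Itgam went the other way. Itgam had 2.75, 3.73 and 2.31 FPKM in double-mutant crypts, against 3.88, 3.80 and 5.63 FPKM in control crypts of that table. Its log2 fold changes were -0.32 in Smad4 KO (SE 0.27, limma adjusted p = 0.554) and -0.47 in the double mutant (SE 0.20, limma adjusted p = 0.143). The part of myeloid cells in the Lyz2 values was not tested. Of the 50-base stretches of the Lyz2 transcript, 15.4% are also in Lyz1, whose reads are far more numerous.

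Mmp7, the matrix metalloproteinase that cleaves mouse pro-alpha-defensins into their active form (known from mice), had its lowest and highest mutant libraries where the alpha-defensins did. It had 259, 1140 and 2259 FPKM in Smad4 KO crypts, against 1949, 674 and 594 FPKM in control crypts, and 1316, 592 and 836 FPKM in double-mutant crypts, against 2009, 715 and 620 FPKM in control crypts. All groups overlapped, and its log2 fold change was -0.08 in Smad4 KO (SE 0.89, limma adjusted p = 0.972) and -0.15 in the double mutant (SE 0.52, limma adjusted p = 0.858).

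Pla2g2a, a secreted phospholipase A2 that attacks bacterial membranes, split the libraries in a way that no other gene of the group did. It had 38.5, 5914 and 18745 FPKM in Smad4 KO crypts, 9958, 5773 and 171 FPKM in double-mutant crypts, and 20072, 112 and 4640 FPKM in control crypts of the first table. Relative to Lyz1 of the same library it was at 1.99% in Smad4 KO 0, 1.54% in double mutant 2 and 1.54% in control 1, and at 61.0 to 92.9% in the other 6 libraries. The low libraries were 1 in each group. As background, RefSeq gives this gene the biotype transcribed pseudogene in the C57BL/6J reference, in which its reading frame is known to be broken, whereas other mouse strains carry an intact allele. The strain of each mouse is not described here, and its part in the split was not tested. Its log2 fold change was -0.42 in Smad4 KO (SE 2.88, limma adjusted p = 0.951) and -0.09 in the double mutant (SE 2.31, limma adjusted p = 0.983), where it turned to 0.19 with quantile normalization.

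Ang4, an antimicrobial ribonuclease of the granules, had a mean of 2999 ± 2328 FPKM in Smad4 KO crypts and 11296 ± 10473 FPKM in control crypts (SD, n = 3 each). Its values were 600, 3148 and 5249 FPKM in Smad4 KO crypts, against 22746, 8942 and 2202 FPKM in control crypts, and 6336, 1188 and 2004 FPKM in double-mutant crypts, against 23455, 9474 and 2296 FPKM in control crypts. Control 0 and control 1 were above every mutant library and control 2 lay among them. Its log2 fold change was -1.83 in Smad4 KO (SE 1.16, limma adjusted p = 0.434), the lowest after that of Mptx1, and -1.69 in the double mutant (SE 0.9999, limma adjusted p = 0.27).

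Itln1, an intelectin that binds microbial sugars, had 1185, 6922 and 16663 FPKM in Smad4 KO crypts and 9605, 2968 and 5174 FPKM in double-mutant crypts, against 18652, 7968 and 4738 FPKM in control crypts of the first table. Nupr1, a small stress-response regulator of transcription, had 34.0, 106 and 459 FPKM in Smad4 KO crypts and 264, 64.3 and 100.1 FPKM in double-mutant crypts, against 417, 143 and 104 FPKM in those controls. Habp2, a hyaluronan-binding serine protease, had 8.78, 52.3 and 101 FPKM in Smad4 KO crypts and 62.3, 25.3 and 38.9 FPKM in double-mutant crypts, against 92.4, 36.0 and 27.97 FPKM in those controls. All 3 had their groups overlapping and the same order of libraries as the alpha-defensin sum within the mutant groups.

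Mptx1 and Mptx2 encode mucosal pentraxins, secreted proteins of a family that binds microbes, and both lie on chromosome 1. Mptx1 had 0.841, 8.18 and 21.2 FPKM in Smad4 KO crypts, against 110.9, 43.9 and 19.7 FPKM in control crypts, which is 17.3% of the control mean. In double-mutant crypts it had 19.7, 3.56 and 6.39 FPKM, against 114, 46.6 and 20.6 FPKM in control crypts, which is 16.3% of the control mean. Every double-mutant library lay below every control, while Smad4 KO 2 overlapped control 2. Mptx2 had 273, 3083 and 11026 FPKM in Smad4 KO crypts and 5487, 1902 and 2204 FPKM in double-mutant crypts, against 8796, 2448 and 1922 FPKM in control crypts of the first table. Its groups overlapped, at 109% of the control mean in Smad4 KO crypts and, in the second table, 70.2% in double-mutant crypts. Of the 50-base stretches of the Mptx1 transcript 17.9% are also in Mptx2, whose reads are far more numerous, and how such reads were divided was not tested.

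The Mptx1 difference did not pass the adjusted threshold. Its log2 fold change was -2.71 in Smad4 KO (SE 1.04, limma unadjusted p = 0.0399, adjusted p = 0.244) and -2.47 in the double mutant (SE 0.76, limma unadjusted p = 0.0166, adjusted p = 0.0703). An exact permutation test, two-sided, gave p = 0.2 in Smad4 KO and p = 0.1 in the double mutant, where 0.1 is the smallest that 3 libraries against 3 can give. In Smad4 KO, 0 of the 24 genes had all mutant libraries above and 0 had all below the controls, where 14.2% of all genes were above and 12.2% below. In the double mutant 0 were above and 1, Mptx1, was below, where 21.3% of all genes were above and 21.3% below.

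Since the Paneth cell genes moved together between libraries, each was also taken as a percentage of Lyz1 in the same library, a choice made after the values were seen. Mptx1 was then at 0.0436, 0.0902 and 0.0707% of Lyz1 in Smad4 KO crypts and at 0.149, 0.0572 and 0.0576% in double-mutant crypts, against 0.474, 0.604 and 0.259% in control crypts. In either mutant the highest library was lower than control 2, the lowest control. The log2 difference was -2.69 in Smad4 KO and -2.41 in the double mutant (exact permutation p = 0.1 each, the smallest possible), and it stayed between -3.03 and -2.15 when any library was left out. Relative to the alpha-defensin sum in place of Lyz1 the differences of Mptx1 were -2.21 in Smad4 KO and -2.04 in the double mutant, with the same separation.

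Among the 23 genes set against Lyz1, 1 (Mptx1) was below and 0 above all controls in Smad4 KO crypts, where 0.0844% of all 11848 genes were below and 0.523% above. In the double mutant 1 (Mptx1) was below and 1 (Wnt3) above, where 1.08% of 11761 genes were below and 4.63% above. Set against the sum of the Defa rows, 1 of 24 (Mptx1) was below and 3 (Mmp7, Wnt3 and Fzd9) were above all controls in Smad4 KO crypts, where 0.0591% of all genes were below and 2.73% above. In the double mutant 2 (Mptx1 and Defa3) were below and 3 (Lyz2, Wnt3 and Fzd9) above, where 0.876% were below and 10.5% above. The shares over all genes are no like background here. Division by Lyz1 or by the Defa sum puts the spread of that denominator into genes that do not vary with it. Undivided, 12.2% of all genes were below the controls in Smad4 KO crypts. The genes that stood apart from the controls also depended on the denominator, except Mptx1 in both mutants and Wnt3 in the double mutant. For Wnt3 this carries little weight, since 1 of 23 and 3 of 24 above the controls were close even to those shares. The denominators also moved together. On the log2(FPKM + 1) scale Lyz1 correlated with the mean of the tested Defa rows at 0.998 (Smad4 KO table) and 0.947 (double-mutant table). The same outcome under both denominators therefore adds little. For 17 of the 23 set against Lyz1 the highest of the 9 libraries was less than 4 times the lowest, whereas Lyz1 itself differed by 15.6 times between Smad4 KO 0 and Smad4 KO 2.

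**Figure D3:**
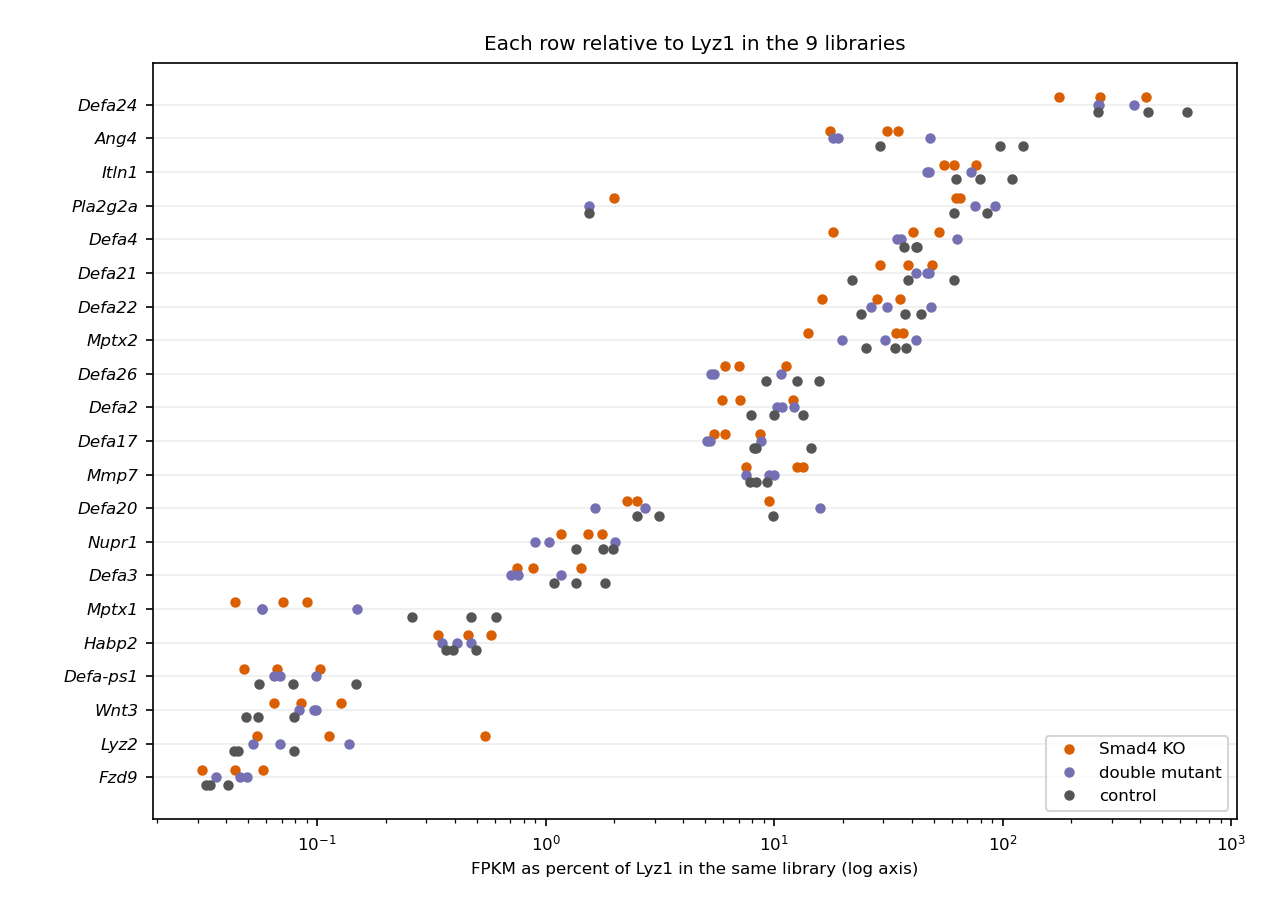
FPKM of the Paneth cell genes named on the axis as a percentage of Lyz1 in the same library, on a log axis, for 3 Smad4 KO, 3 double-mutant and 3 control libraries. Mptx1 lies at 0.0436 to 0.149% in the 6 mutant libraries and at 0.259 to 0.604% in the controls; Pla2g2a has 1 low library in each group.

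Wnt3 is the Wnt ligand that Paneth cells give to stem cells, and Fzd9 is a Wnt receptor of the Frizzled family. Wnt3 had 2.45, 7.74 and 19.4 FPKM in Smad4 KO crypts, against 12.9, 5.77 and 3.72 FPKM in control crypts, and 12.8, 6.16 and 9.26 FPKM in double-mutant crypts, against 13.4, 6.12 and 3.88 FPKM in control crypts. Fzd9 had 0.846, 5.24 and 9.43 FPKM in Smad4 KO crypts and 6.52, 2.85 and 4.00 FPKM in double-mutant crypts, against 7.93, 2.98 and 2.49 FPKM in control crypts of the first table. All groups overlapped, and the log2 fold changes of Wnt3 were 0.15 (SE 0.72, limma adjusted p = 0.929) in Smad4 KO and 0.34 (SE 0.43, limma adjusted p = 0.6) in the double mutant. As a percentage of Lyz1, Wnt3 was at 0.127, 0.0854 and 0.0646% in Smad4 KO crypts and at 0.0968, 0.0991 and 0.0835% in double-mutant crypts, against 0.0553, 0.0794 and 0.0489% in control crypts. Every double-mutant library lay above every control, narrowly for double mutant 2 against control 1, and the group means differed by 0.63 on the log2 scale (exact permutation p = 0.1, the smallest possible).

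Regulators and other Paneth cell genes outside this group were taken from a list of 39 symbols, of which 38 had a row. In Smad4 KO 31 were tested and 0 called, where 0.00844% of all genes were called higher and 0.0253% lower. In the double mutant 29 were tested, with 2 called higher and 0 lower, where 9.39% of all genes were called higher and 9.09% lower. Calls on this list were thus no more frequent than over all genes. The median log2 fold change was -0.21 in Smad4 KO and -0.23 in the double mutant. The 2 that rose in the double mutant were Kcnn4, the calcium-activated potassium channel of Paneth cell secretion, and Atg16l1, an autophagy protein that Paneth cell granules depend on.

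Kcnn4 had 81.2 ± 4.07 FPKM in double-mutant crypts and 37.8 ± 7.21 FPKM in control crypts (SD, n = 3 each), a log2 fold change of 1.10 (SE 0.15, limma adjusted p = 0.0134). Its values were 82.8, 73.1 and 57.4 FPKM in Smad4 KO crypts, against 29.7, 42.6 and 36.2 FPKM in control crypts, a log2 fold change of 0.95 (SE 0.19, limma adjusted p = 0.121). All 6 mutant libraries were above all controls, and the call in the double mutant was lost without double mutant 0 (limma adjusted p = 0.0532) or double mutant 2 (0.0727). Atg16l1 had 18.6 ± 0.705 FPKM in double-mutant crypts and 14.6 ± 1.13 FPKM in control crypts, a log2 fold change of 0.34 (SE 0.09, limma adjusted p = 0.0494) that lost its call when any library was left out and under 7 of 10 other settings. In Smad4 KO crypts the log2 fold change of Atg16l1 was 0.28 (SE 0.10, limma adjusted p = 0.232). Kcnn4 and Atg16l1 are active in other epithelial cells too.

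The other genes with the smallest p were low in part of the libraries. Pnliprp1, a pancreatic lipase relative found in Paneth cells, had 0.573, 2.62 and 5.41 FPKM in Smad4 KO crypts, against 44.6, 21.2 and 2.38 FPKM in control crypts (log2 fold change -2.18, SE 1.04, limma adjusted p = 0.31). Gm15299, which RefSeq names as an alpha-defensin gene, had 0.626, 0 and 0 FPKM in double-mutant crypts, against 4.22, 3.32 and 0.641 FPKM in control crypts (log2 fold change -1.50, SE 0.48, limma adjusted p = 0.0753, and 0.0308 without control 2, the control nearest to the mutants). It averaged 0.209 FPKM in double-mutant crypts and 2.73 FPKM in control crypts. It thus passed the filter only through the controls, in which it was high, and its p carries little weight. The transcription factors Sox9, needed for Paneth cells, and Atoh1, needed for all secretory cells, did not pass the test. In the second table Sox9 was at 21.2 ± 1.93 FPKM in double-mutant crypts and 16.2 ± 5.81 FPKM in control crypts (limma adjusted p = 0.284), and Atoh1 at 23.03 ± 3.89 FPKM in double-mutant crypts and 21.4 ± 6.37 FPKM in control crypts (limma adjusted p = 0.714).

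The markers of other cell types also differed between libraries. Summed enterocyte markers were at 14080, 992 and 2205 FPKM in Smad4 KO crypts and at 1076, 2101 and 2051 FPKM in double-mutant crypts, against 3659, 4940 and 10442 FPKM in control crypts of the first table. Smad4 KO 0, with the lowest alpha-defensin sum, had the highest enterocyte sum and the lowest stem cell marker sum (374 FPKM, against 748 to 1722 FPKM in the other 8 libraries). The lists were not uniform. Apoa1, Apoa4, Fabp1 and Fabp2 were higher in Smad4 KO 0 than in control 2. Alpi, Sis, Lct, Anpep, Slc5a1 and Treh were lower (Sis 273 against 640 FPKM, Anpep 771 against 1524 FPKM). Of the stem cell markers, Smoc2 and Slc12a2 were lower in control 2 than in Smad4 KO 0. The 11 mesenchyme and blood markers summed to 106 FPKM in Smad4 KO 2 and 69.8 FPKM in double mutant 0, the libraries with the most alpha-defensin of their groups, and to at most 12.3 FPKM elsewhere. Of the lists, 9 of 10 enterocyte markers and 6 of 9 tested lymphocyte and other immune markers fell in the double mutant, where 9.09% of all genes did. In the same comparison 2 of 6 stem cell markers rose, Lgr5 and Smoc2, as did 1 of 8 enteroendocrine markers (Pyy), where 9.39% of all genes did, and 1 of 9 goblet markers fell (Clca3). No marker of these lists was called in the comparison of Smad4 KO with control crypts. The part of these other cells in the Paneth cell values was not tested.

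**Figure D4:**
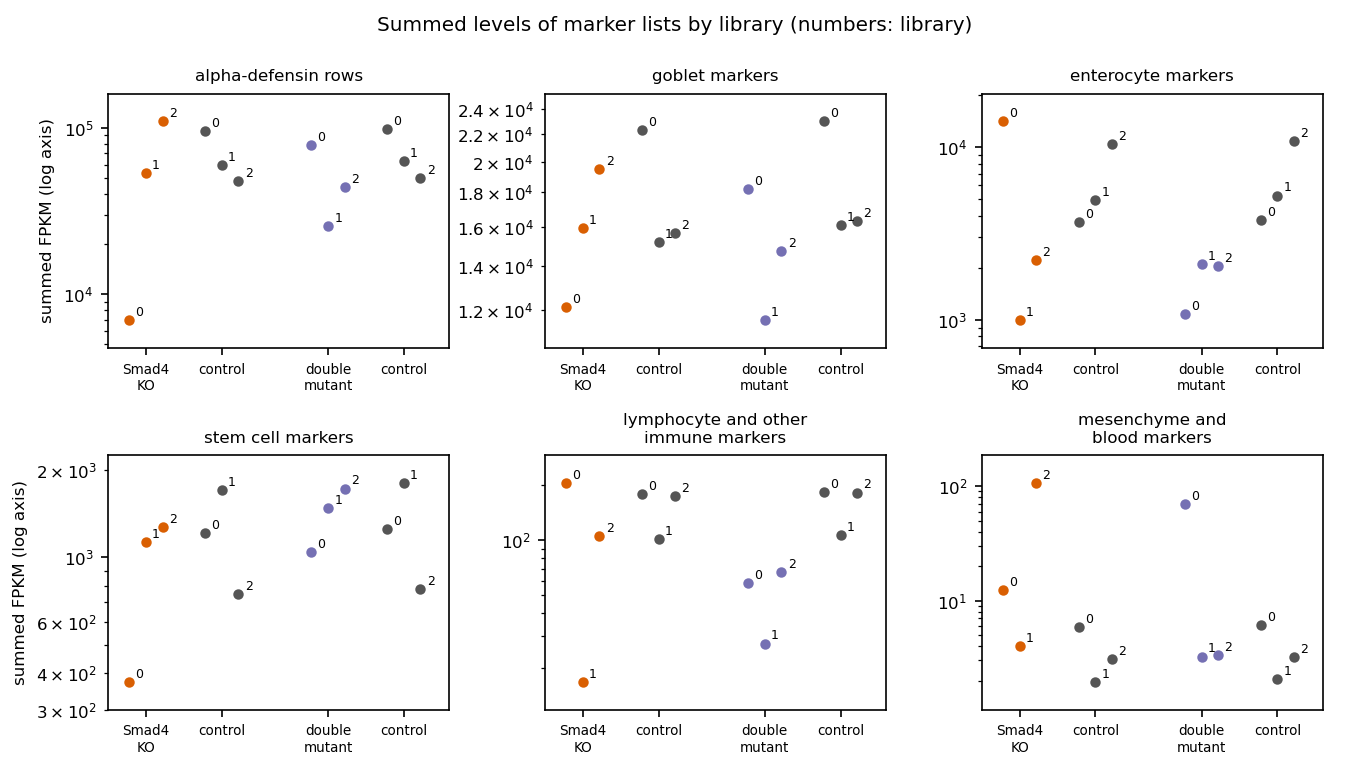
Summed FPKM on a log axis of the alpha-defensin rows and of 5 lists of markers of other cells in each library, with mutant groups left of the controls of their table and the library number beside each point. Smad4 KO 0 has the lowest alpha-defensin sum, 6945 FPKM, and the highest enterocyte sum, 14080 FPKM.

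Outside the group, the genes most like the alpha-defensins were found by the correlation of log2(FPKM + 1) with the mean of the tested Defa rows over the 6 libraries of each table, taking the lower of the 2 values, among 8975 genes that averaged 5 FPKM or more. The 10 highest were Tmed6 (r = 0.987), Bhlha15 (0.983), Hpd (0.977), Tmed3 (0.973), Fam46c (0.971), Gm15293 (0.965), Vmac (0.96), Mbd1 (0.96), 1810010D01Rik (0.958) and 1700019D03Rik (0.955). Tmed6 and Tmed3 are p24 proteins of the early secretory pathway, and Bhlha15 (Mist1) is a transcription factor of secretory cells that was on the Paneth cell list, as was Gm15293, which RefSeq names as an alpha-defensin gene. Tmed6 had 6.13, 35.9 and 80.5 FPKM in Smad4 KO crypts and 36.5, 16.4 and 27.7 FPKM in double-mutant crypts, against 66.9, 26.0 and 22.9 FPKM in control crypts of the first table. These values describe the libraries, which share their controls between tables, and carry no test.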

How the data were processed

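Crypt RNA of 9 libraries was deposited by the authors as 2 tables of FPKM (fragments per kilobase of transcript, scaled to the mapped fragments), made with TopHat2 2.1.1 and Cuffnorm 2.2.1 on mm9, per the submitters' processing notes; Cuffdiff 2.2.1 is named there too. No source used here says that replicates were different mice, so p-values measure the spread between these libraries. Depth is not known beyond a rough scale relative to control 0, and no counting intervals can be given. The tables were normalized separately and were fitted one by one with limma (version 3.58.1, R 4.3.3) on log2(FPKM + 1), using a mean-variance trend, over rows with a mean of at least 1 FPKM, and p-values were Benjamini-Hochberg adjusted over all rows tested. A fold change on this scale understates the change of low genes. The fit was tested on simulated data. Single values were compared by exact two-sided permutation. The genes and lists were chosen with earlier results of these data known. All non-defensin genes were named, with the 6 Defa rows of highest control mean, the Defa rows of highest and lowest fold change, the called and the 3 lowest-p genes of the Paneth cell list, and the 10 genes most alike. The ratio to Lyz1 was added after the values were seen. Replicate numbers are given in the labels. Deviations of same-numbered libraries correlated at -0.111 to 0.223 in the Smad4 KO table and at 0.0374 to 0.132 in the double-mutant table. The numbers were therefore not taken as pairs. Alternatives covered the pseudocount, the filter, the trend, scaling, the replicate block, sex (read from Xist and Y-linked rows) and each library left out. The values of 1 Defa row are not reported here by itself; it is in the counts and sums.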

Additional observations from a re-analysis of the deposited data

How the results depend on the processing

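No gene of the group was called higher or lower under any alternative but 1: with the replicate block, Mptx1 was called in the double mutant (1 gene called lower, against 0 without the block; limma adjusted p = 0.0358). The numbers were not taken as pairs, although each double-mutant library correlated best with the control of its own number (3 of 3, and 1 of 3 in Smad4 KO). Over the other settings with all libraries the adjusted p of Mptx1 in the double mutant was 0.0622 to 0.122, and in Smad4 KO 0.217 to 0.372. The Kcnn4 call held under all settings with every library. Atg16l1 lost its call with a pseudocount of 5 (adjusted p = 0.052), without the filter (0.0668), without the trend (0.063), with summed FPKM equalised without these genes (0.101), with median-ratio scaling (0.0547), with the replicate block (0.0692) and with sex (0.086). The count of all genes called in the double mutant, 1104 higher and 1069 lower, was 468 and 547 with summed FPKM equalised without these genes, and as low as 18 and 12 without double mutant 2.

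Signs turned in these cases. The log2 ratio of the mean alpha-defensin sums in Smad4 KO, -0.26, was -1.16 to 0.27 with each library left out. With all libraries, Pla2g2a in the double mutant was 0.19 with quantile normalization, and Defa21 was -0.19 there and -0.15 with sex. Leaving out each library in turn gave these log2 fold changes in Smad4 KO: Lyz1 -1.38 to 0.60, Pla2g2a -2.56 to 2.26, Mmp7 -0.76 to 0.80, Defa26 -1.84 to 0.039, Defa21 -1.36 to 0.82, Wnt3 -0.48 to 0.80, Defa6 -4.07 to 4.20 and Gm15299 -0.57 to 0.48. In the double mutant they were Lyz2 -0.24 to 0.85, Defa21 -0.21 to 0.33, Lyz1 -0.52 to 0.31, Mmp7 -0.47 to 0.38, Pla2g2a -2.22 to 1.73 and Wnt3 -0.010 to 0.77. Ang4 and Mptx1 kept their sign throughout, at -2.73 to -0.91 and -3.52 to -1.72 in Smad4 KO. The cause of these changes was not tested. With 3 libraries a group and a spread this wide, a difference of the size fitted for most of these genes was not detectable.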
